A study of Mus musculus with 4 samples.

Results

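The 7 genes described here encode proteins of megakaryocytes, platelets and clotting: Tubb1, Gp1ba, Selp, Vwf, Zfpm1, Alox12 and F5. They were taken by gene symbol from a table of 1175 genes measured by RNA sequencing of mouse bone, and all 7 were found in it. Bones were collected at 13 weeks of age from wild-type mice that carried no Cre transgene. The study's text gives the strain of its wild-type runners as C57BL/6J. The exercise group had trained at medium intensity on a treadmill, for 5 weeks from the age of 8 weeks, and the sedentary group had not. Marrow was flushed from the bones before they were ground for polyadenylated RNA, and the blood and vessel cells that stayed behind were not counted. There were 2 libraries per group, and the labels do not say that they came from separate animals, so the spread between libraries may be technical.

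In every one of the 1175 genes the mean count of the exercise libraries exceeded that of the sedentary ones, by at least 2.48 times, so the list was itself chosen on this comparison, by a rule that the sources used here do not give. The 7 members were also picked with results of these data known. Their differences between exercise and sedentary bone are therefore given as a description, and where calls from fits of all listed genes are counted, nothing is read from them about the members. The counts of the table summed to between 516963 and 594856 in sedentary libraries and between 1160883 and 2680636 in exercise libraries. These sums are not library totals, since other genes were not analysed here, and true depth is unknown. Values are given as counts and as shares, which are counts per 1000000 counts of the table. A share can be lower in exercise for a gene whose count was higher. In bulk tissue, more cells of a type and more RNA per cell cannot be told apart.

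Megakaryocytes are the large marrow cells that make platelets, by pushing out long processes driven by microtubules into marrow vessels. Platelets stick to an injured vessel when the receptor complex that holds GPIbα binds von Willebrand factor, and they then release the contents of their granules and show P-selectin on their surface. Factor V, after activation, is the cofactor with which activated factor X turns prothrombin into thrombin. In mice factor V is made in the liver and in megakaryocytes, and von Willebrand factor and P-selectin are made in endothelial cells as well as in megakaryocytes.

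None of the 10 defining markers of megakaryocytes and platelets on a fixed list, which included Pf4, Ppbp, Itga2b and Gp9, was among the 1175 genes, so their levels were not analysed here and the cell source of the 7 genes could not be checked against them. Of 18 endothelial markers 2 were listed, Stab2 and Sele, with a summed share of 427 and 505 in sedentary and 492 and 618 in exercise libraries. Of 14 markers of bone matrix, osteoblasts and osteocytes only Sost was listed, with shares of 723 and 667 in sedentary and 786 and 696 in exercise libraries. Of 9 hepatocyte markers only Apoa2 was listed, and the table also held other genes of liver products, given beside F5. The lists of mast cell and basophil, monocyte and macrophage, keratinocyte, osteoclast, skeletal muscle and cartilage markers had 0 listed genes each.

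The 7 genes lie on 5 chromosomes of the mm10 genome (GENCODE release M21). Tubb1 spans chr2:174450695-174457882, Zfpm1 chr8:122282141-122337251 and Vwf chr6:125546774-125686679, all on the plus strand. Selp at chr1:164115264-164150026 and F5 at chr1:164151838-164220277 are direct neighbours on the same strand, 1.81 kb apart with 0 annotated genes between them. Gp1ba at chr11:70639122-70642036 and Alox12, on the minus strand at chr11:70241457-70255353, lie 384 kb apart with 24 annotated genes between them, of which 1, Mink1, was listed. Exons of Selp overlap 2 genes on the opposite strand, Gm16587 by 186 bases and Gm16548 by 438 bases, and exons of F5 overlap Gm16548 by 262 bases. Whether counting used strand is not given in the sources used here, so reads of these overlaps cannot be told apart. In transcripts of Selp, 11.1% of all 50-base words also occur, read on either strand, in transcripts of another gene. This part was 2.89% for F5, 0.947% for Vwf, 0.372% for Alox12 and 0% for Tubb1, Gp1ba and Zfpm1. For Selp and F5 the other genes were only the overlapping ones named above. Counts of Selp and Vwf were fractional, as was 1 count of F5, while those of Tubb1, Gp1ba, Zfpm1 and Alox12 were whole in every library.

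The sequences before the start sites of Tubb1, Gp1ba and F5 are shown because these genes had the 3 largest share ratios among the 7. Each is the 250 bases before the RefSeq start, 5′ to 3′ on the strand of the gene, from GRCm38.p6, whose coordinates are those of mm10. Capitals mark short words bound by factors that act in megakaryocytes. Searched on both strands were AGATAA or AGATAG, as well as TGATAA or TGATAG, for GATA factors. For ETS factors AGGAAG or CGGAAG was searched, for RUNX factors TGTGGT, and for NF-E2 together with AP-1 TGAGTCA.
Tubb1, chr2:174450345-174450594, plus strand: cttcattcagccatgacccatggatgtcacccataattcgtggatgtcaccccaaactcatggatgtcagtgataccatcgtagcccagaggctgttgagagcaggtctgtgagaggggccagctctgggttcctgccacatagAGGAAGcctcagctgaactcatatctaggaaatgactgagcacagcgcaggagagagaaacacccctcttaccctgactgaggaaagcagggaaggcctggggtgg
Gp1ba, chr11:70638872-70639121, plus strand: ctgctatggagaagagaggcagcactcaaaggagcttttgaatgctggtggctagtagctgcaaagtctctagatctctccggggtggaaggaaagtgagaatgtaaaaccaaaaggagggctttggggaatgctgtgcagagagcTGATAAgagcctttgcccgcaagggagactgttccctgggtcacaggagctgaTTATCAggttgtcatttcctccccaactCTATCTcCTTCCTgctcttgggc
F5, chr1:164151585-164151834, plus strand: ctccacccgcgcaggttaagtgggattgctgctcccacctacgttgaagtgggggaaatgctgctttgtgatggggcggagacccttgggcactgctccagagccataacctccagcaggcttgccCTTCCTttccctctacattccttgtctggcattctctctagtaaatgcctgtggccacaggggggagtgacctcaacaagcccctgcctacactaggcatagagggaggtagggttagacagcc

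The Gp1ba sequence held 3 GATA words, which begin 104, 51 and 23 bases before the start, and 1 ETS word 16 bases before it. The sequences of Tubb1, F5, Selp and Zfpm1 held 1 ETS word each and 0 GATA words, and that of Alox12 held none of the words. GATA words occurred in 26.5% and ETS words in 39.2% of 32851 RefSeq promoter stretches of the same length. RUNX words occurred in 14% and the NF-E2 and AP-1 word in 4.46% of them, and in 0 of the 6 members with a sequence. Vwf was the member without one. The Tubb1 start in RefSeq lies at 174450595 and that in GENCODE at 174450695. A word is a match of letters and not a measured binding site.

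As shares of the table, the 7 genes did not all stand in the same direction in exercised beside sedentary bone. Tubb1, Gp1ba and F5 had higher shares in both exercise libraries, Zfpm1 had a higher share mainly in exercise replicate 1, Selp stood within the sedentary range in 1 exercise library, and Vwf and Alox12 had lower shares mainly in exercise replicate 2. Shares of Tubb1, Gp1ba, Zfpm1 and F5 in both exercise libraries were above both sedentary libraries, 4 of 7 genes beside 36.0% of all listed genes. Alox12 was below in both, 1 of 7 beside 16.1% of listed genes. The median log2 share ratio of exercise over sedentary bone was 0.47 over the 7 genes, from -0.32 to 2.13, and 0.14 over all listed genes, with quartiles of -0.10 and 0.63. A positive log2 share ratio was seen in 5 of the 7 and in 64.1% of listed genes. As counts, all 7 genes were higher in both exercise libraries than in both sedentary ones, like 99.7% of listed genes. Here the choice of the list and the unknown depth of the libraries cannot be told apart.

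**Figure D1:**
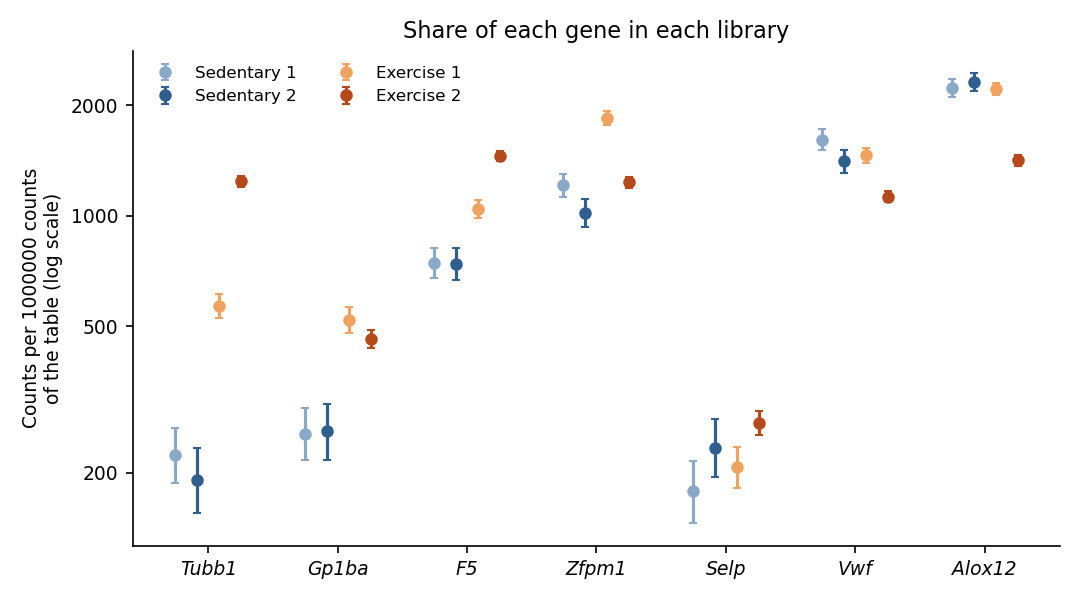
Share of each of the 7 genes in the 2 sedentary (blue) and 2 exercise (orange) libraries, in counts per 1000000 counts of the table on a log axis, with 95% Clopper-Pearson counting intervals. Tubb1 stands at 224 and 192 in sedentary and at 569 and 1241 in exercise libraries, while the sedentary and exercise shares of Selp and of Vwf overlap.

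Tubb1 encodes β1-tubulin, the β-tubulin isotype of megakaryocytes and platelets that builds the marginal microtubule band. It had 133 and 99 counts in sedentary replicates 1 and 2, and 660 and 3326 counts in exercise replicates 1 and 2. Its shares were 224, 192, 569 and 1241 in the same order, which gave means of 208 ± 22.7 in sedentary and 905 ± 475 in exercised bone (SD, n = 2 each). Both exercise libraries stood far above both sedentary ones, and they differed from each other by 2.18 times, more than for any other of the 7 genes. The log2 share ratio was 2.13 ± 0.40 (SE), the largest of the 7 and at rank 128 of 1175. Leaving out exercise replicate 2 gave 1.45, and leaving out exercise replicate 1 gave 2.57.

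Gp1ba encodes the α chain of platelet glycoprotein Ib, the part of the receptor that binds von Willebrand factor. It had 152 and 134 counts in sedentary libraries and 604 and 1237 in exercise libraries. The shares were 256 and 259 in sedentary and 520 and 461 in exercised bone, with means of 257 ± 2.60 and 491 ± 41.6 (SD, n = 2 each). Libraries of a group lay close together and the groups did not overlap, and Gp1ba moved least among the higher members when libraries were dropped. Its log2 share ratio of 0.93 ± 0.17 (SE) stayed between 0.84 and 1.02 when any 1 library was dropped.

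F5 encodes coagulation factor V. Its counts were 443 and 383 in sedentary libraries and 1214 and 3890.28 in exercise libraries. Shares were 745 and 741 in sedentary bone and 1046 and 1451 in exercised bone, with means of 743 ± 2.72 and 1249 ± 287 (SD, n = 2 each). The sedentary pair was nearly equal, and both exercise libraries stood above it. The log2 share ratio of F5 was 0.75 ± 0.20 (SE), and 0.49 without exercise replicate 2. The hepatocyte marker Apoa2, an apolipoprotein gene, had 7 and 8 counts in sedentary libraries and 7 in exercise replicate 1, but 323 in exercise replicate 2. The liver genes Fabp1, Ambp, Mup20 and Hpx, chosen after their values were seen, summed to 0 and 1 counts in sedentary libraries and to 8 and 222 in exercise replicates 1 and 2. Relative to its sedentary mean, the share of F5 was 1.41 times as high in exercise replicate 1 and 1.95 times in replicate 2. The part of liver RNA in the values of F5 was not tested.

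Zfpm1 encodes FOG1, the cofactor through which GATA1 acts in megakaryocyte and erythroid cells. It had 720 and 526 counts in sedentary and 2144 and 3311 in exercise libraries. The shares were 1210 and 1017 in sedentary bone and 1847 and 1235 in exercised bone. Exercise replicate 2 therefore stood only just above sedentary replicate 1, by less than the counting interval of either, and exercise replicate 1 was 1.495 times exercise replicate 2. For Zfpm1 the log2 share ratio was 0.47 ± 0.23 (SE), with 0.14 when exercise replicate 1 was dropped and 0.73 when replicate 2 was.

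Selp encodes P-selectin, an adhesion receptor stored in platelet and endothelial granules. Its counts were 106.42 and 120.94 in sedentary and 241.25 and 733.27 in exercise libraries. Shares of 179 and 234 in sedentary bone and 208 and 274 in exercised bone overlapped between the groups. Its log2 share ratio of 0.23 ± 0.27 (SE) was smaller than its error, and it was 0.02 without exercise replicate 2. Its neighbour F5 was counted 4.16 and 3.17 times as often as Selp in sedentary libraries, and 5.03 and 5.31 times in exercise libraries.

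Vwf encodes von Willebrand factor, the multimeric glycoprotein that platelets bind at a wound and that carries factor VIII in plasma. It had 958.73 and 727.66 counts in sedentary and 1693.99 and 3022.09 in exercise libraries. The shares were 1612 and 1408 in sedentary bone and 1459 and 1127 in exercised bone, so that exercise replicate 1 lay between the sedentary libraries and exercise replicate 2 below both. The log2 share ratio was -0.23 ± 0.18 (SE), and -0.05 without exercise replicate 2.

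Alox12 encodes the platelet 12-lipoxygenase, which turns arachidonic acid into a hydroperoxy product. Its counts were 1325 and 1193 in sedentary and 2574 and 3793 in exercise libraries, a ratio of mean counts of 2.53 that was close to the lowest in the table and stood at rank 1166 of 1175. Shares were 2227 and 2308 in sedentary and 2217 and 1415 in exercised bone. Exercise replicate 1 was nearly at the sedentary level, and exercise replicate 2 was well below it. Its log2 share ratio was -0.32 ± 0.24 (SE), with -0.03 when exercise replicate 2 was dropped and -0.68 when replicate 1 was.

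**Figure D2:**
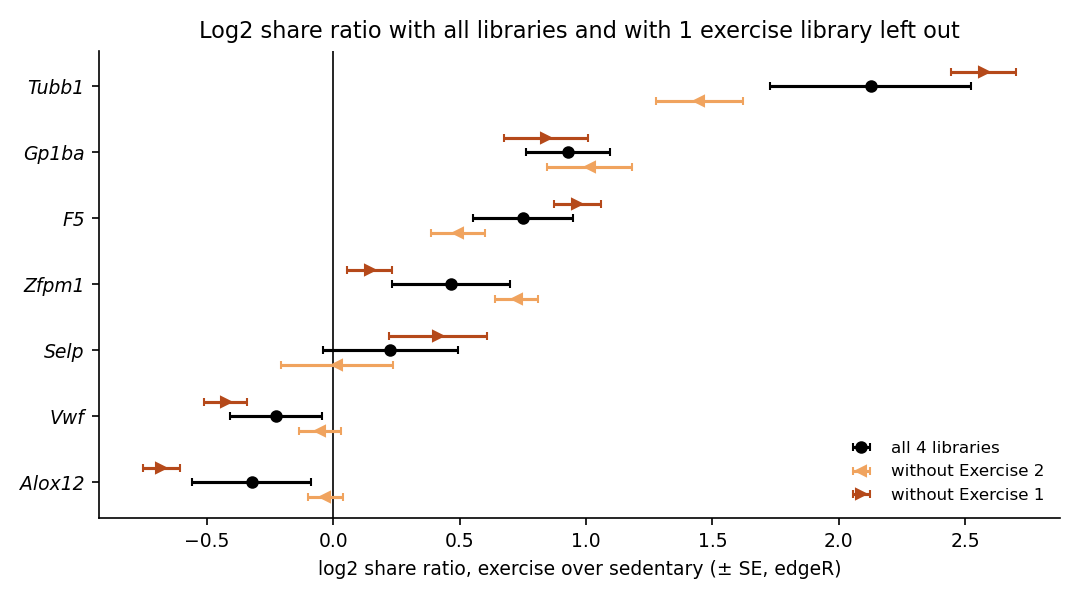
Log2 share ratio of exercise over sedentary bone for the 7 genes, with standard errors from edgeR, for all 4 libraries (black circles), without exercise replicate 2 (light triangles) and without exercise replicate 1 (dark triangles). Gp1ba moves little, between 0.84 and 1.02, while Tubb1 moves from 1.45 to 2.57 and Alox12 from -0.68 to -0.03.

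Counting error was small beside the differences of Tubb1, Gp1ba and F5. The 95% Clopper-Pearson interval of a share reached 21.7% above and 18.7% below the share for Tubb1 in sedentary replicate 2, the widest of the 7 genes, and 3.18% above and 3.12% below it for F5 in exercise replicate 2. These intervals cover counting error only. The spread between exercise libraries exceeded that between sedentary libraries for every member in absolute share. Over 1005 listed genes with mean counts of 100 or more, log2 ratios between the 2 exercise libraries had an SD of 0.69, and those between the 2 sedentary libraries one of 0.28.

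With the thresholds that the study's methods give (p under 0.05 before adjustment, and a log2 ratio beyond 0.25 in either direction), the edgeR fit of all listed genes placed 3 of the 7 genes (Tubb1, Gp1ba and F5) among those with a higher share, beside 11.3% of listed genes. It placed 0 of the 7 among those with a lower share, beside 0.0851%. The study used these thresholds with DESeq2 on its own data, whereas shares of the table were compared here. Past an adjusted p of 0.05 there were 0 of the 7 in edgeR, beside 0.34% of listed genes. That count was 5 of 7 (Tubb1, Gp1ba, Vwf, Alox12 and F5) without exercise replicate 1, beside 55.4% of listed genes, and 4 of 7 (Tubb1, Gp1ba, Zfpm1 and F5) without exercise replicate 2, beside 27.1%. With all 4 libraries 3 of the 7 had an unadjusted p under 0.05, beside 11.4%. The DESeq2 Wald test placed 1 of the 7, Tubb1, past an adjusted p of 0.05, beside 3.06%, and limma-voom placed 0 of the 7 and 0 of all listed genes. Tubb1, Gp1ba and F5 met the study's thresholds with a higher share in all 3 tools, beside 12.1% of listed genes with the DESeq2 Wald test and 5.7% with limma-voom. Over all listed genes the lowest log2 share ratio was -0.38 in edgeR with all 4 libraries, which left little room for calls of a lower share. No member met the study's thresholds with a lower share in any of the 3 tools, beside 1.19% and 0.0851% of listed genes in the last 2. F5 no longer met them without either sedentary library, although its log2 share ratio stayed at 0.75 without either one. Without exercise replicate 1, Selp also met them with a higher share (0.41) and Vwf (-0.42) and Alox12 (-0.68) with a lower one, as did 55.3% of listed genes in all. Without exercise replicate 2, Zfpm1 also met them (0.73), as did 30.7% of listed genes. Since the members come from a list chosen on this comparison, these counts describe the members and nothing was read from them.

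**Figure D3:**
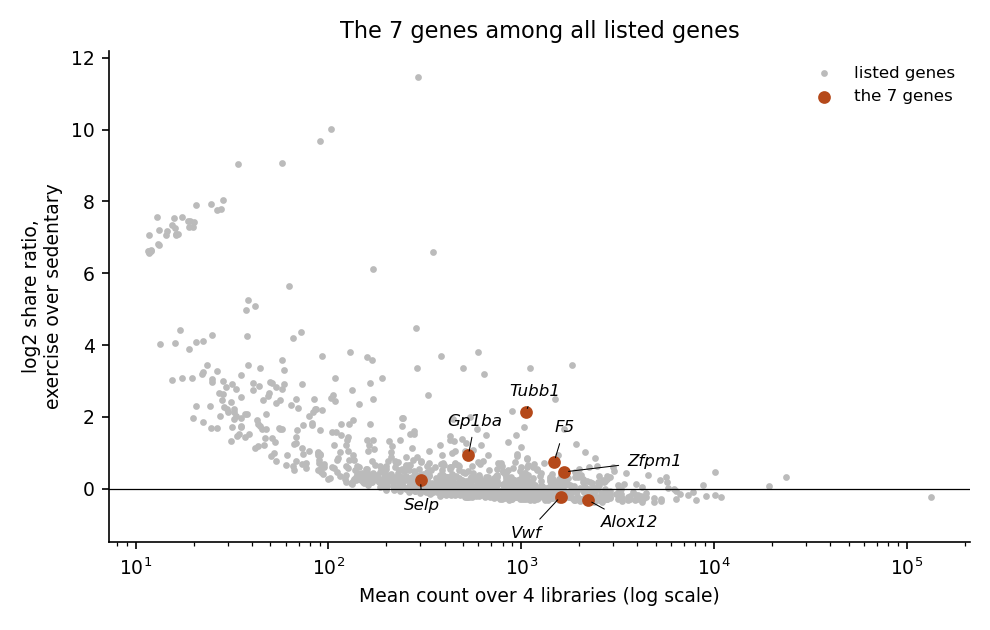
Log2 share ratio of exercise over sedentary bone against the mean count over 4 libraries (log axis) for all 1175 listed genes (grey) and the 7 genes (orange). Genes near 0 counts in sedentary bone have values set by the prior count of the fit, and the 7 genes, with mean counts of 300.47 or more, lie between -0.32 for Alox12 and 2.13 for Tubb1.

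Ratios between genes of the same library do not depend on the unknown library total. As a part of the summed count of the 7 genes, Tubb1 made up 3.47% and 3.11% in sedentary and 7.23% and 17.2% in exercise libraries. Gp1ba made up 3.96% and 4.21% in sedentary and 6.61% and 6.41% in exercise libraries, and F5 11.5% and 12.03% against 13.3% and 20.1%. These 3 genes were above the sedentary range in both exercise libraries, beside 19.1% of listed genes when set against the same sum. Alox12 made up 34.5% and 37.5% in sedentary and 28.2% and 19.6% in exercise libraries, and Vwf 24.98% and 22.9% against 18.6% and 15.6%. These 2 genes were below the sedentary range, beside 39.3% of listed genes. The parts add up to the whole in each library, so larger parts of some members leave smaller parts for others. As a share of the table, Vwf overlapped between the groups. Selp (2.77% and 3.80%, against 2.64% and 3.80%) and Zfpm1 (18.8% and 16.5%, against 23.5% and 17.1%) overlapped between the groups. The sum itself had shares of 6452 and 6158 in sedentary and 7866 and 7204 in exercise libraries.

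**Figure D4:**
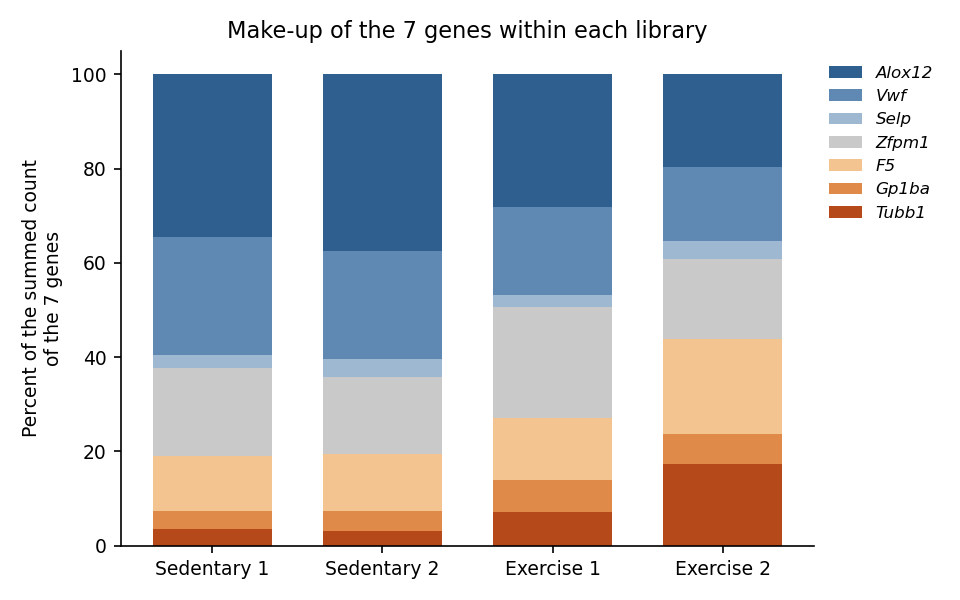
Make-up of the summed count of the 7 genes within each of the 4 libraries, in percent, with the bars starting at 0 and adding up to the whole. The part of Tubb1 is 3.47% and 3.11% in sedentary and 7.23% and 17.2% in exercise libraries, and that of Alox12 is 34.5% and 37.5% against 28.2% and 19.6%.

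Relative to Vwf, the gene of its ligand, the receptor gene Gp1ba had more counts in exercise libraries. This is a ratio of RNA counts and not of proteins. There were 0.159 and 0.184 counts of Gp1ba for each count of Vwf in sedentary libraries, and 0.357 and 0.409 in exercise libraries, 2.23 times higher on average. The ratio of Alox12 to Vwf overlapped between the groups, with 1.38 and 1.64 counts of Alox12 for each of Vwf in sedentary and 1.52 and 1.26 in exercise libraries. That of Gp1ba to Alox12, which share a chromosome, did not, with 0.115 and 0.112 counts of Gp1ba for each of Alox12 in sedentary and 0.235 and 0.326 in exercise libraries. Tubb1 stood higher relative to each of the other 6 genes in both exercise libraries, for example at 0.875 and 0.739 counts for each of Gp1ba in sedentary and 1.09 and 2.69 in exercise libraries. Among the 21 pairs of the 7 genes, the ratio did not overlap between the groups in 15, beside 54.4% of all pairs of listed genes.

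Per kb of annotated exon, the mean share in sedentary bone was highest for Alox12 (555 ± 13.9 per kb, SD, n = 2) and Zfpm1 (318 ± 38.9), followed by Tubb1 (148 ± 16.1), F5 (99.97 ± 0.37), Gp1ba (94.7 ± 0.96), Vwf (94.0 ± 8.99) and Selp (46.8 ± 8.82). Levels of Gp1ba and Vwf did not differ beyond their spread, nor did those of F5 and Vwf. In exercised bone Tubb1 had the highest mean, 643 ± 338 per kb, but its spread covered Alox12 (445 ± 139) and Zfpm1 (440 ± 123). Gp1ba (181 ± 15.3) and F5 (168 ± 38.6) came next and did not differ beyond their spread, and Vwf (80.5 ± 14.6) and Selp (54.5 ± 10.5) were lowest. Duplicate reads had been removed by molecular barcodes, so counts need not scale with length.

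Genes with the most similar profile were sought by the Euclidean distance of centred log2 shares over the 4 libraries, among 926 genes that had a standard name and mean counts of 100 or more. The nearest gene was Cmip for Tubb1 (distance 0.30), Kdm2b for Gp1ba (0.13), Adam17 for F5 (0.05) and Kifc5b for Zfpm1 (0.09). It was Pole for Selp (0.08), Mdm1 for Vwf (0.05) and Cap1 for Alox12 (0.02). Cmip had shares of 108 and 85.1 in sedentary and 207 and 527 in exercise libraries, and Cap1 had 8172 and 8347 against 8037 and 5134, each in the order of its member. With 4 libraries many genes can share a profile, and 51 genes were nearer to Tubb1 than its nearest member, F5 (1.38). The nearest member to Alox12 was Vwf, at a distance of 0.29.

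Other genes of these pathways were read from 8 gene lists. Together they held 219 genes, of which 35 were listed, 28 of them besides the 7. Of these 28 genes, 11 had a higher and 17 a lower share in exercised bone, with a median log2 share ratio of -0.14, beside 64.1% of all listed genes with a higher share and a median of 0.14. At the study's thresholds in edgeR 2 of the 28 had a higher share, Myh9 and Vcl, beside 11.3% of listed genes. A lower share was called for 1, Iqgap1, which is itself the only gene so called among all 1175 (0.0851%). Vcl and Iqgap1, like Sh2b3 of the signalling list, are named here after their values were seen.

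The cytoskeleton list held the most listed genes, 10 of 27 with Tubb1, of which 6 had a higher and 4 a lower share. Myh9, the nonmuscle myosin heavy chain whose mutation in humans gives large platelets, had shares of 6602 and 6372 in sedentary and 9732 and 8243 in exercise libraries (log2 share ratio 0.47 ± 0.16, SE). Vcl, the gene of vinculin, had shares of 141 and 148 against 813 and 2309 (3.44 ± 0.54), and like Tubb1 it was higher in exercise replicate 2 than in replicate 1. Tln1, which encodes the integrin activator talin, stood at -0.17 ± 0.16, the actin-binding Cap1 at -0.33 ± 0.24, the Arp2/3 subunit gene Arpc1b at 0.02 ± 0.18, and the scaffold gene Iqgap1 at -0.34 ± 0.13.

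Among receptors, granule genes and regulators, the listed genes besides the members had log2 share ratios between -0.24 and 0.04. Of 21 adhesion receptors 3 were listed, and besides Gp1ba and Selp this was Itga6, a laminin-binding integrin chain, at a log2 share ratio of -0.16 ± 0.16. Of 35 granule genes 5 were listed, and besides Vwf these were Nbeal2, needed for α granules (0.04 ± 0.14), Lyst (-0.24 ± 0.17), Ap3b1 (-0.21 ± 0.20) and Hps1 (-0.07 ± 0.20), all needed for lysosome-related organelles such as dense granules. Of 29 transcription factors and cofactors 3 were listed, and besides Zfpm1 these were the ETS repressor gene Etv6 (-0.12 ± 0.19) and Mrtfa, a cofactor of serum response factor (-0.13 ± 0.24). None of these 7 other genes met the study's thresholds in edgeR, beside 11.3% of listed genes with a higher and 0.0851% with a lower share.

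Of 43 genes of platelet signalling 8 were listed, 1 with a higher share (Sh2b3, an adaptor that restrains cytokine signalling, 0.18 ± 0.15) and 7 with a lower one, beside 64.1% higher over the whole table. At the study's thresholds in edgeR 0 of the 8 were called, beside 11.3% of listed genes with a higher and 0.0851% with a lower share. The kinase gene Syk stood at -0.19 ± 0.14, the Rap1 regulator gene Rasa3 at -0.31 ± 0.18, Plcg2 at -0.31 ± 0.23 and Pik3cg at -0.15 ± 0.14. In the arachidonate list Alox5, the leukotriene-forming 5-lipoxygenase gene, was the listed gene besides Alox12, with shares of 1061 and 1050 in sedentary and 1389 and 1054 in exercise libraries (0.21 ± 0.18).

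Among 35 coagulation genes 3 were listed, F5, F8 and Ano6. F8, which encodes factor VIII, the cofactor related to factor V, had 75 and 55 counts in sedentary and 131 and 461 in exercise libraries, and its shares of 126 and 106 against 113 and 172 overlapped (log2 share ratio 0.30 ± 0.36). Ano6, the scramblase that exposes the lipid surface on which clotting factors gather, had shares of 555 and 596 in sedentary and 652 and 797 in exercise libraries (0.33 ± 0.17). Sele, the endothelial selectin gene on chromosome 1 beside Selp, had few counts, 7 and 13 in sedentary and 40 and 214 in exercise libraries (1.64 ± 0.82).

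**Figure D5:**
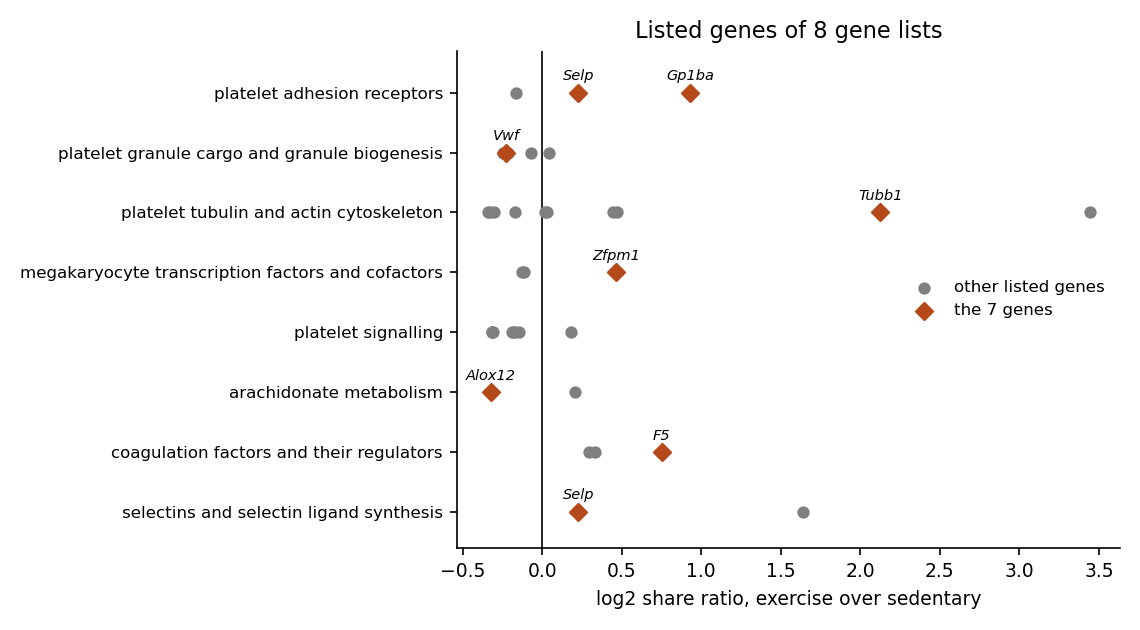
Log2 share ratio of exercise over sedentary bone for the listed genes of 8 pathway lists, with the 7 genes as diamonds and the other 28 as grey circles. The largest value is that of Vcl at 3.44, above Tubb1 at 2.13, and 7 of the 8 listed genes of platelet signalling lie below 0.

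Values of other blood lineages varied beside these. The erythroid genes Ank1, Sptb and Epb42, 3 of 15 on their list, had a summed share of 10949 and 11109 in sedentary and 9842 and 10767 in exercise libraries. This sum joins unlike directions. The log2 share ratio was 0.43 ± 0.15 (SE) for Ank1, but -0.28 ± 0.14 for Sptb and -0.24 ± 0.18 for Epb42. The granulocyte genes Csf3r and Padi4, 2 of 15, summed to 5436 and 5334 against 6978 and 5669. The B lymphocyte genes Pax5, Rag1, Cd22 and Ighm, 4 of 12, summed to 22074 and 22288 in sedentary libraries and to 42592 and 11405 in exercise replicates 1 and 2, a sum carried by Ighm with shares of 20194 and 20392 against 41148 and 9160. The other 3 summed to 1879 and 1896 in sedentary libraries and to 1444 and 2245 in exercise replicates 1 and 2. The part of these lineages in the shares of the 7 genes was not tested.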

How the data were processed

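Bulk RNA sequencing was done on 4 bone libraries, which per the labels came from a modified Smart-seq2 protocol with UMIs (molecular barcodes). The authors mapped reads to mm10 with STAR, counted them with HTSeq and removed duplicates by UMI. Not given in the sources used are versions, annotation, strand setting and the step that gave fractions. Their deposited table holds estimated counts for 1175 genes, not scaled to depth, of which 596 were whole in all libraries (tolerance 1e-09).

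After rounding of the estimated counts, all listed genes were fitted together by edgeR 4.0.16 in R 4.3.3 (quasi-likelihood, two-sided test of exercise over sedentary). There were no covariates, column totals served as scaling, and p-values were adjusted by Benjamini-Hochberg (0.05). The standard error was computed as |log2 ratio| / √F. Alternatives were DESeq2 1.42.0 (size factors, Wald test), TMM factors, limma-voom (limma 3.58.1), a mean count of at least 20, the replicate number as a block, each library left out, whole-count genes only, Tubb1 as denominator and, chosen after seeing the data, column totals without mt-Co1. Profiles used log2(share + 1). The members and gene lists were chosen with earlier results of these data known. The text names the 7 members, the nearest profile of each, list genes where a list had up to 6 besides the members (otherwise the 4 with most counts), neighbouring genes, and a few others said to be chosen after their values were seen. Simulated counts with a smaller spread than these libraries were used to test the code of the fit. They do not show how well the fit suits these data. Symbols of 1163 of 1175 genes matched GENCODE M21, and RefSeq (GRCm38.p6) gave 250 bases upstream for 6 of the 7 members. Python 3.11.15, pandas 2.3.3, matplotlib 3.10.9 and SciPy 1.17.1 were used for tables and plots.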

Additional observations from a re-analysis of the deposited data

How the results depend on the processing

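The direction of the share was kept by all 7 genes under every alternative run that held them, with 5 of 7 higher. Among whole-count genes, where Selp, Vwf and F5 drop out, it was 3 of 4. Some kept directions rest on very small log2 share ratios. Without exercise replicate 2 these were 0.02 for Selp, -0.03 for Alox12 and -0.05 for Vwf. Selp had 0.04 without sedentary replicate 1. The median log2 share ratio of the 7, 0.47, was 0.41 to 0.60 when 1 library was dropped. Gp1ba, 0.93 with column totals, was 0.83 with DESeq2 size factors and 0.84 with TMM factors. Among all listed genes, those past an adjusted p of 0.05, 4 in edgeR, numbered 36 with the DESeq2 Wald test, 0 with limma-voom, 0 among whole-count genes and 0 to 651 with each library left out (most without exercise replicate 1). Those at the study's thresholds, 134 in edgeR, numbered 68 with limma-voom, 42 in the smaller set of whole-count genes, and 44 to 650 with each library left out (fewest without sedentary replicate 2). With DESeq2 size factors the split at those thresholds was 121 higher to 21 lower, against 133 to 1. Column totals without mt-Co1 gave 124 to 10.

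With the replicate block, 12 of 1175 listed genes (1.02%) were past an adjusted p of 0.05 in edgeR, and 1 of the 7 members, Tubb1. Across genes, the log2 difference between the sedentary replicates correlated at -0.08 with that between the exercise replicates. With so few libraries this cannot decide whether equal replicate numbers mark paired libraries.

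Relative to the summed count of the 7 genes, the log2 difference with 1 library dropped was -0.30 to 0.23 for Selp and -0.038 to 0.42 for Zfpm1 (lowest without exercise replicate 1), so neither kept its direction, and the cause was not tested. With the Tubb1 count as denominator it was -1.09 for Gp1ba, -1.29 for F5, -1.58 for Zfpm1, -1.80 for Selp, -2.25 for Vwf and -2.38 for Alox12, which follows from Tubb1 having the largest ratio of the 7. A group from which 1 library was dropped is assumed to vary like the other pair. Since true depth is unknown, all directions hold for shares of the table only.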
